A study of Mus musculus with 6 samples.

Results

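The genes described here encode ion channels and pumps of the sperm membrane: Catsper1, Catsper2, Catsper3, Catsper4, Kcnu1, Hvcn1, Pkd2l1, Trpc2, Atp1a4 and Atp2b4. These 10 genes were picked for their known roles in sperm, and the members were all probes deposited under 1 of their symbols, which gave 12 probes on 9 genes of 45281 probes in all. Pkd2l1 had no probe under that symbol. A probe was used if some genotype had detection p-values below 0.05 on both its arrays, which kept 9 of the 12 probes, on 7 genes, of 20573 kept in all. A further 5 probes stood under older symbols of Hvcn1, Pkd2l1 and Trpc2 and are described apart.

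RNA came from 1 testis of each of 6 male mice of strain C57BL6J, hybridised to 1 Illumina bead array per mouse. Of these, 2 mice carried H3f3b WT/WT (WT), 2 carried H3f3b WT/- (HET) and 2 carried H3f3b -/- (KO), with each genotype once in litter 1 and once in litter 2. The constitutive deletion arose from a floxed H3f3b allele crossed to Zp3Cre, a Cre driven in growing oocytes, so that all cells of the KO testis lack the gene. The mice were 8 weeks old by the source names and the series' design, while the age field of the labels gives an embryonic age. H3f3b encodes histone H3.3, a replication-independent histone variant. Over the 6 arrays, 19809 to 21323 probes were detected at a p-value under 0.05, the median signal was 95.9 to 101.9 and arrays correlated pairwise with r from 0.982 to 0.993. The deposited signal of H3f3b, litter 1 before litter 2 here and below, read 3810.8 and 3535.3 for WT and 2377.1 and 1833.5 for HET, and stood at an undetected 96.6 and 93.0 for KO.

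CatSper is a calcium channel of the sperm tail, with a pore formed by 4 different proteins and a set of accessory subunits. In the mouse its pore subunits are needed for the whip-like, hyperactivated tail beat and for male fertility. The channel opens as the cell interior becomes alkaline, and potassium efflux through the Kcnu1 channel, ion pumps and pH regulators set the conditions under which it works. The pore genes are transcribed in the germ line of the testis, which includes spermatids, the haploid cells that build the tail.

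The starts of the CatSper genes give the sequence context of the transcripts compared below. RefSeq windows (GRCm38.p6) of 250 bases before to 50 bases after the annotated start were at hand for 6 of the 10 genes, and those of 3 pore subunits are shown because their transcripts were called, missed the threshold or stood nearly level between genotypes. They lie at chr2:121413743-121414042 (minus strand) for Catsper2, at chr13:55784329-55784628 (plus strand) for Catsper3 and at chr4:134227334-134227633 (minus strand) for Catsper4. Capitals mark matches on either strand to any of 6 short motifs named after the sequences.
Catsper2: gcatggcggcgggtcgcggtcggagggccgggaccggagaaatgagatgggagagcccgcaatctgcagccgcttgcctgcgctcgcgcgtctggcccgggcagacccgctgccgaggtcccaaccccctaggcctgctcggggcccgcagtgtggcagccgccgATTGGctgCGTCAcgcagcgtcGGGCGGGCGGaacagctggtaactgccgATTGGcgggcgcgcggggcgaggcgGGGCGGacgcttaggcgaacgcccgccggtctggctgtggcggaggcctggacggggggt
Catsper3: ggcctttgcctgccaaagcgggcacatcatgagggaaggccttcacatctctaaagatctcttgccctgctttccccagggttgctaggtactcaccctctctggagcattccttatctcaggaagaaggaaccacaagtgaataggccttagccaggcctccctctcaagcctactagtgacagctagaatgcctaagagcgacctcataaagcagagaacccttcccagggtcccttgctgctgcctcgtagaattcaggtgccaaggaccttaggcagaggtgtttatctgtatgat
Catsper4: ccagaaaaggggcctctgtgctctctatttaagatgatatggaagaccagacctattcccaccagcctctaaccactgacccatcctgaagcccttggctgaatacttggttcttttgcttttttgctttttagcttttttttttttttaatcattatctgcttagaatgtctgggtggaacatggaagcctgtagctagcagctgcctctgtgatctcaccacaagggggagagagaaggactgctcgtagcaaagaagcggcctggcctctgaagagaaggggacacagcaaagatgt
The core of the cAMP response element, TGACG, was in 20.8% of the 32851 windows of the RefSeq table, and its palindrome, TGACGTCA, in 1.79%. The X-box core GTTGCC was in 12.5%. The TATA motif, searched as TATAAA, was in 13.6%, the GC box GGGCGG in 35.7% and the CCAAT box in 37.4%. The Catsper2 window held 1 match to TGACG, 77 bases before the start and on the minus strand, 2 to CCAAT and 3 to GGGCGG, a pair of which overlap. The Catsper3 and Catsper4 windows held 0 matches to any of the 6. The windows also differed in base composition, with a GC content of 74.7% for Catsper2, 52.3% for Catsper3 and 46.7% for Catsper4. Of the other member windows, those of Trpc2 and Atp2b4 held TGACG and that of Atp1a4 held no match. Among genes described below that were called lower in KO, the Efcab9 window held GTTGCC and the Lrrc52 window GGGCGG. Factor binding was not measured in this study, and a link between motifs and transcript levels was not tested.

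Transcripts of 2 of the 4 CatSper pore genes were lower in KO than in WT testis. Catsper1 fell 2.18-fold and Catsper3 fell 1.78-fold at its brighter probe, whereas Catsper4 was 1.37-fold lower without passing the test and Catsper2 was at nearly the same level in all genotypes. In whole testis, fewer cells of a type and less RNA per cell cannot be told apart. The summed normalized signal of 13 spermatid markers ran from 168081 to 174234 in WT and from 149071 to 152017 in KO, and its part in these differences was not tested.

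Catsper1 encodes the pore subunit whose histidine-rich amino-terminal end is thought to sense pH. Its deposited signal, on a linear scale, read 807.1 and 894.5 for the WT mice, 718.7 and 702.0 for the HET mice, then 474.6 and 443.7 for the KO mice. After background correction and quantile normalization, its log2 normalized signal was 9.49 and 9.70 on the WT arrays, 9.25 and 9.49 on the HET arrays, then 8.51 and 8.43 on the KO arrays. Both KO arrays lay below all 4 others, while the HET array of litter 2 reached the WT array of litter 1. The log2 difference between KO and WT was -1.12 (SE 0.15, 95% interval -1.46 to -0.79, n = 2 mice each, limma adjusted p = 0.0103). Within litters it was -0.97 and -1.27. The call was lost on dropping WT of litter 2 (-1.01, limma adjusted p = 0.0787) or KO of litter 1 (-1.17, limma adjusted p = 0.0666).

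Catsper3 encodes a further pore subunit and was read by 2 probes. At the brighter probe (ILMN_2998446) the log2 normalized signal was 10.80 and 11.03 on the WT arrays, 10.62 and 10.92 on the HET arrays, then 9.88 and 10.28 on the KO arrays. At the other probe (ILMN_2773872) WT stood at 10.51 and 10.72, HET at 10.32 and 10.76, and KO at 9.67 and 9.93. Both probes placed the KO arrays below all 4 others, and WT and HET overlapped. The log2 differences between KO and WT were -0.84 (SE 0.18, 95% interval -1.24 to -0.43, limma adjusted p = 0.0326) and -0.82 (SE 0.18, 95% interval -1.22 to -0.41, limma adjusted p = 0.0337). Both calls were lost when any 1 of the WT or KO arrays was left out: at the brighter probe, dropping WT gave -0.95 for litter 1 (limma adjusted p = 0.0820) and -0.71 for litter 2 (0.142), and dropping KO gave -0.64 for litter 1 (0.143) and -1.04 for litter 2 (0.0556). With no filter on dim probes, where 45281 probes enter the adjustment, the adjusted p was 0.0819.

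Catsper4, the third pore gene with lower values, had a log2 normalized signal of 10.74 and 10.93 on the WT arrays, 10.72 and 10.86 on the HET arrays, then 10.34 and 10.43 on the KO arrays. Again the KO arrays lay below all 4 others. The log2 difference from WT was -0.45 (SE 0.14, 95% interval -0.76 to -0.14), short of the threshold after correction (limma adjusted p = 0.0793). It did pass when the background was left in (-0.43, limma adjusted p = 0.0178), with normexp at offset 50 (-0.44, 0.0236), with an intensity trend in the variance prior (0.0150) and in the authors' mean-scaled table (-0.41, 0.00618).

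Catsper2, the remaining pore gene, had a log2 normalized signal of 12.68 and 12.50 on the WT arrays, 12.53 and 12.40 on the HET arrays, then 12.62 and 12.45 on the KO arrays. The 3 genotypes overlapped. The log2 difference between KO and WT was -0.06 (SE 0.14, limma adjusted p = 0.820), with a 95% interval of -0.38 to 0.26. Whether the differences of the pore genes differ from each other was not tested.

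**Figure D1:**
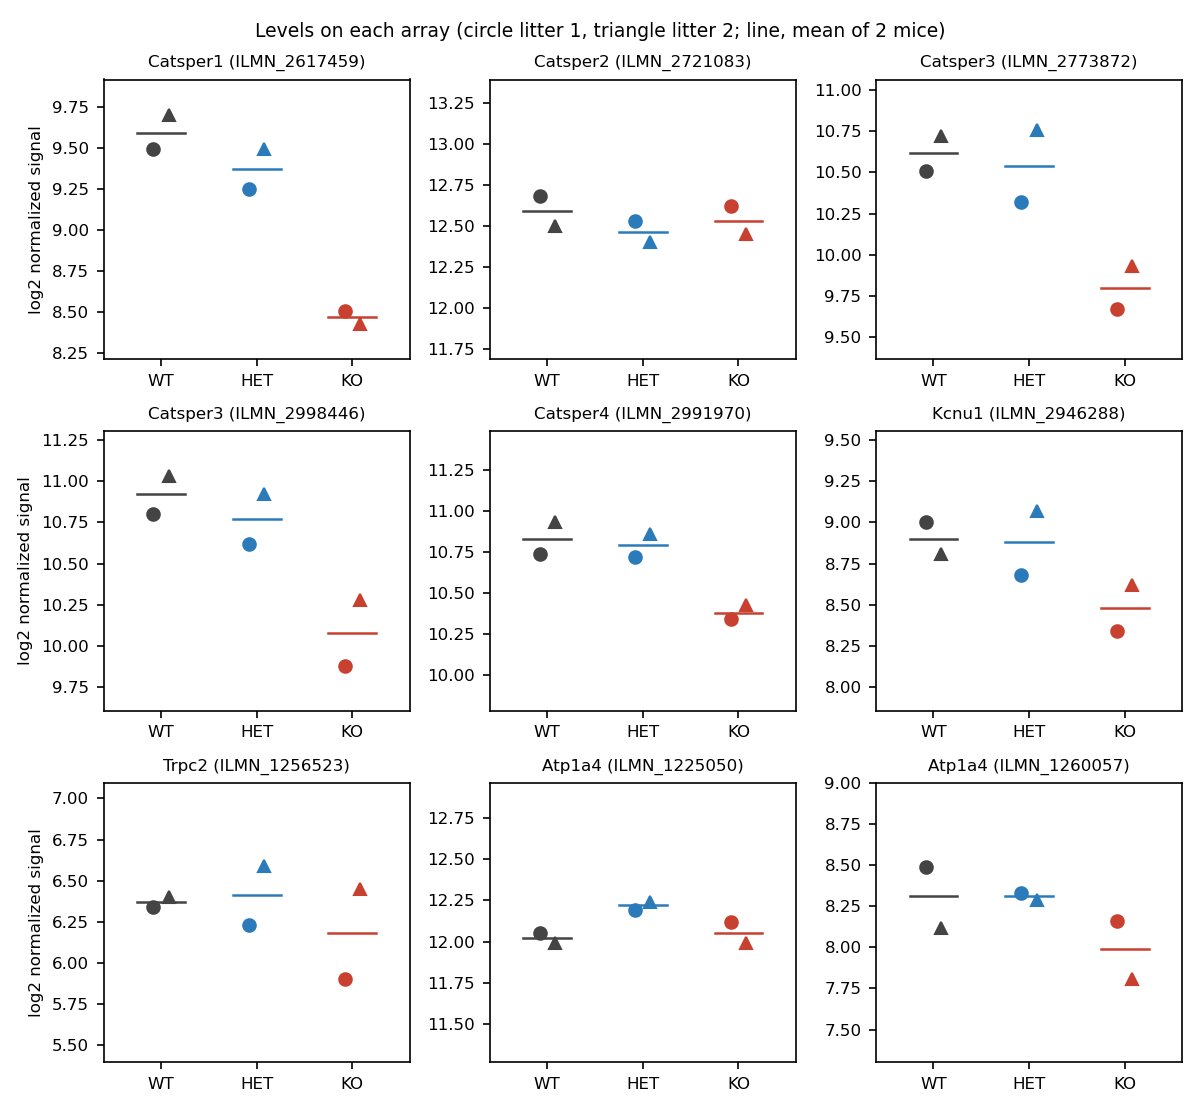
Log2 normalized signal (vertical axes, each spanning 1.7 log2 units) by genotype for the 9 kept probes, with circles for litter 1, triangles for litter 2 and lines at the mean of 2 mice. The KO arrays sit below all WT and HET arrays for Catsper1, both Catsper3 probes, Catsper4 and Kcnu1, and overlap them for the other 4 probes.

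Kcnu1 encodes Slo3, the sperm potassium channel that hyperpolarises the membrane as the cell turns alkaline. Its log2 normalized signal was 9.0 and 8.81 on the WT arrays, 8.68 and 9.07 on the HET arrays, then 8.34 and 8.62 on the KO arrays. Both KO arrays lay below all 4 others, narrowly so in litter 2, and the spread within HET was the widest of the 3 groups. KO differed from WT by -0.42 on the log2 scale (SE 0.17, 95% interval -0.81 to -0.03, limma adjusted p = 0.155), with -0.65 in litter 1 and -0.19 in litter 2, and the test was not passed. Hvcn1 encodes a voltage-gated proton channel that is known as a main proton exit of human sperm. Its probe had a deposited signal between 87.0 and 101.5 and detection p-values between 0.0769 and 0.753, and was not detected on any array.

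Atp1a4 encodes the sodium pump catalytic subunit that is particular to male germ cells and sperm. Its brighter probe (ILMN_1225050) had a log2 normalized signal of 12.05 and 11.99 on the WT arrays, 12.19 and 12.24 on the HET arrays, then 12.12 and 11.99 on the KO arrays. KO and WT overlapped and both HET arrays lay above them. The KO difference of 0.03 (95% interval -0.26 to 0.33, limma adjusted p = 0.893) turned negative with median scaling (-0.07), cyclic loess (-0.02) and the authors' mean scaling (-0.04). The dimmer probe (ILMN_1260057) put WT at 8.49 and 8.12, HET at 8.33 and 8.29, and KO at 8.16 and 7.81, a difference of -0.32 (95% interval -0.71 to 0.07, limma adjusted p = 0.269).

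Trpc2 encodes a cation channel known from pheromone sensing in the vomeronasal organ, and a part in the acrosome reaction of mouse sperm has been proposed for it. Its log2 normalized signal was 6.34 and 6.40 on the WT arrays, 6.23 and 6.59 on the HET arrays, then 5.90 and 6.45 on the KO arrays. All genotypes overlapped, and the KO difference of -0.20 (95% interval -0.64 to 0.25, limma adjusted p = 0.558) was -0.44 in litter 1 and 0.05 in litter 2. Atp2b4 encodes the plasma membrane calcium pump PMCA4, which mouse sperm need for motility. Its 2 probes had deposited signals between 90.7 and 105.2, close to background, and each was detected on 2 of 6 arrays, 1 HET and 1 KO, so neither was kept.

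The probes under older symbols gave a value for Pkd2l1, which encodes a polycystin family cation channel. Its probe, deposited as BC046386, had a log2 normalized signal of 8.85 and 8.94 on the WT arrays, 9.01 and 8.94 on the HET arrays, then 9.18 and 8.78 on the KO arrays. The genotypes overlapped, with a KO difference of 0.08 (95% interval -0.28 to 0.44, limma adjusted p = 0.774). For Trpc2, deposited as Trrp2, 1 probe was detected on all 6 arrays and differed by -0.17 between KO and WT (limma adjusted p = 0.520). The other Trrp2 probe was detected on 3 arrays and on neither WT array. Both Hvcn1 probes deposited as 0610039P13Rik failed the filter, with detection on 2 and 0 of 6 arrays.

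Across the 9 kept member probes, 3 were called lower and 0 higher in KO than in WT at an adjusted p under 0.05, all of them CatSper pore probes. Over all 20573 kept probes 6.91% were called, 4.66% lower and 2.25% higher. An unadjusted p under 0.05 was reached by 5 of the 9, all lower in KO, against 14.0% of all kept probes in that direction. The KO arrays lay below all 4 others at 5 of the 9 probes, against 16.4% of all kept probes. Read at the brightest probe under each gene's own symbol, the 7 kept genes had a median log2 difference of -0.42. The median was 0.05 over 14532 genes, whose probes were grouped by updated symbols. The probes of Catsper3 share a transcript, as do those of Atp1a4, and are not independent. The members, and the gene lists described below, were chosen with earlier results of these data known. Of all probes called, 32.5% were higher in KO with quantile normalization. This share was 44.5% without background correction, 42.9% with normexp at offset 50, 58.4% with median scaling, where the median difference over kept probes became 0.12, and 68.4% in the authors' mean-scaled table. It was lower with cyclic loess (23.2%), with only the WT and KO arrays in the fit (26.5%) and with 1 array left out (14.5% to 28.0%, the lowest without the KO mouse of litter 2). The differences of Catsper1 and of both Catsper3 probes were negative in each of these settings, and with median scaling they were -1.04, -0.84 (ILMN_2998446) and -0.81 (ILMN_2773872).

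**Figure D2:**
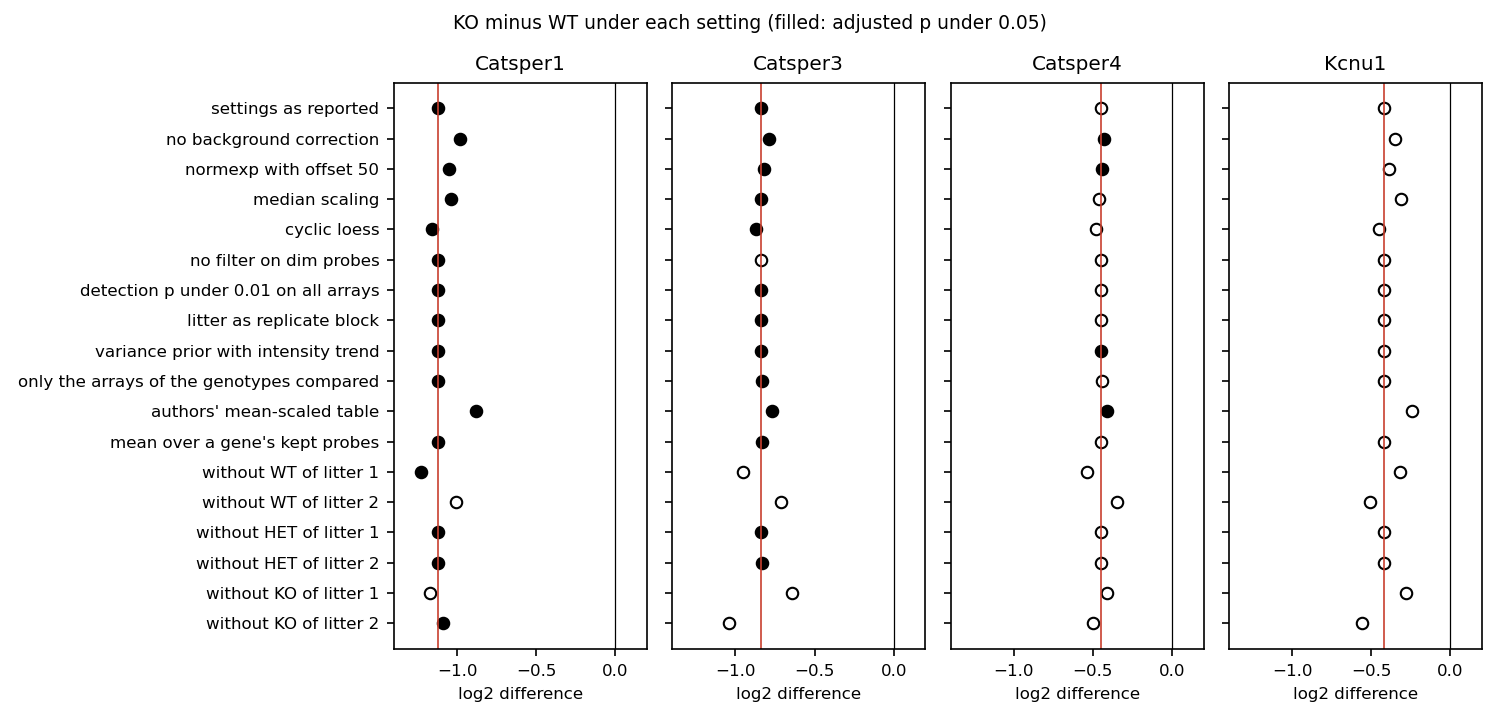
Log2 difference between KO and WT (horizontal axes) for Catsper1, Catsper3 (probe ILMN_2998446), Catsper4 and Kcnu1 under each processing setting and with each array left out. Filled points have an adjusted p under 0.05 and the red line marks the value as reported. Points for Catsper1 run from -1.23 to -0.88 and for Kcnu1 from -0.56 to -0.24.

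Loss of 1 H3f3b allele gave no call among the members. In HET against WT, 0 of 9 probes passed limma's test and 0 had an unadjusted p under 0.05, the smallest being 0.161. Over all kept probes 0% were called, while 8.84% had an unadjusted p under 0.05. The log2 difference of Catsper1 was -0.23 (95% interval -0.56 to 0.11), with -0.24 in litter 1 and -0.22 in litter 2. The intervals of the other pore genes were -0.55 to 0.27 for the brighter Catsper3 probe, -0.36 to 0.27 for Catsper4 and -0.45 to 0.19 for Catsper2. Kcnu1 differed by -0.03 (-0.42 to 0.36), Trpc2 by 0.04 (-0.41 to 0.49) and the brighter Atp1a4 probe by 0.19 (-0.10 to 0.49).

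Loss of the remaining allele was compared between KO and HET, which shares its KO arrays with the comparison against WT. Here 0 of 9 member probes passed limma's test, against 0.112% of all kept probes (23 probes, or 69 with litter as a replicate block). At an unadjusted p under 0.05 stood 5 of the 9, all lower in KO, against 10.1% of all kept probes in that direction. The difference of Catsper1 was -0.90 on the log2 scale (95% interval -1.23 to -0.56, limma adjusted p = 0.0679), and those of Catsper3 were -0.69 and -0.74 (limma adjusted p = 0.116 and 0.106). Catsper4 differed by -0.40 (-0.72 to -0.09) and Kcnu1 by -0.39 (-0.78 to 0.00). The call depended on the setting. Catsper1 passed when the background was left in (-0.77, limma adjusted p = 0.0186), with normexp at offset 50 (0.0145), with median scaling (0.0338), with the stricter filter (0.0354), with an intensity trend (0.0048) and in the authors' mean-scaled table (0.00162). Both Catsper3 probes passed in 4 settings, with limma adjusted p-values for ILMN_2998446 and ILMN_2773872 of 0.0477 and 0.0397 when the background was left in, 0.0432 and 0.0344 with normexp at offset 50, 0.0177 and 0.0136 with an intensity trend, and 0.00646 and 0.0047 in the authors' table. Catsper4 passed in the authors' table only (-0.36, limma adjusted p = 0.0290).

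**Figure D3:**
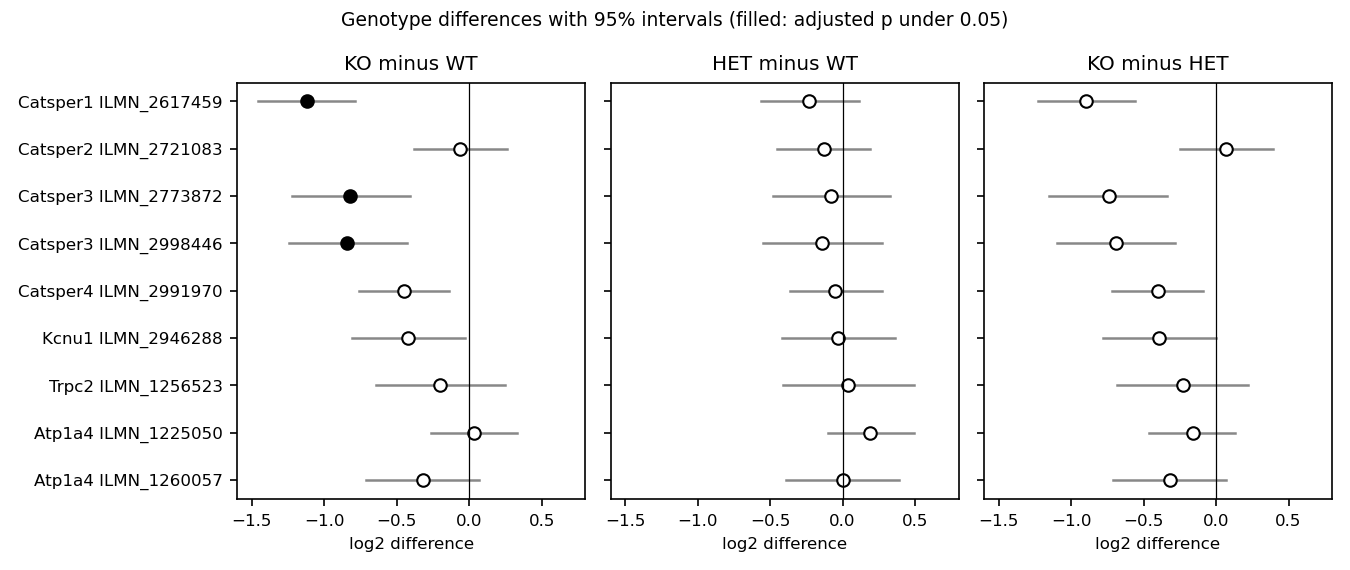
Log2 differences (horizontal axes) between genotypes for the 9 kept probes, with 95% intervals from limma. Filled points have an adjusted p under 0.05 and are found for Catsper1 and both Catsper3 probes in KO minus WT.

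The wider machinery around these channels was read from 6 lists with 115 genes, of which 77 had a kept probe. In KO against WT 5 of the 77 fell and 5 rose, that is 6.49% in each direction, against 4.98% and 2.64% of all 14532 genes. Their median log2 difference was -0.06, against 0.05 over all genes.

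Among the accessory subunits and regulators of CatSper, 1 of 7 measured genes fell and 0 rose, with a median of -0.10. The fall was in Efcab9, a calcium-binding protein that sits on the channel and tunes its response to pH and calcium. Efcab9 (deposited as 1700007I06Rik) had a log2 normalized signal of 11.77 and 11.91 on the WT arrays, 11.62 and 11.61 on the HET arrays, then 11.05 and 11.23 on the KO arrays. The KO arrays lay below all 4 others, as at 16.4% of all kept probes, and KO differed from WT by -0.70 (SE 0.14, limma adjusted p = 0.0261). This call was lost when any 1 WT or KO array was left out, with values from -0.79 to -0.61. HET differed from WT by -0.22 (limma adjusted p = 0.671) and KO from HET by -0.47 (limma adjusted p = 0.131), with neither called. Catsperz, the partner of Efcab9, differed by -0.28 at its brighter probe (limma adjusted p = 0.213). The other kept Catsperz probe differed by -0.53 and was not called either (limma adjusted p = 0.0793). The extracellular subunit gene Catsperg1 differed by -0.29 (limma adjusted p = 0.183). Catsperg1 has a near copy, Catsperg2, which differed by 0.23 (limma adjusted p = 0.383), and the probes may not tell the pair apart.

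Of 9 potassium and sodium channel and pump genes, 1 fell and 1 rose, with a median of 0.28. Lrrc52 encodes the accessory subunit of the Kcnu1 channel in mouse testis. Its log2 normalized signal was 8.97 and 9.40 on the WT arrays, 8.65 and 8.99 on the HET arrays, then 7.89 and 8.27 on the KO arrays, so the KO arrays lay below all others. The log2 difference between KO and WT was -1.10 (SE 0.20, limma adjusted p = 0.0221). This call was lost on dropping WT of litter 2 (-0.88, limma adjusted p = 0.109) or KO of litter 1 (-0.91, 0.112), and with no filter on dim probes (0.0655). Atp1b2, a sodium pump beta subunit, differed by 0.51 (limma adjusted p = 0.0956).

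Of 16 calcium pump, exchanger and other calcium channel genes, 3 rose and 0 fell, with a median of 0.02. They were Atp2b1, a plasma membrane calcium pump of many cell types (0.93, limma adjusted p = 0.0459), Atp2a3, a pump of the endoplasmic reticulum (0.61, 0.0317), and Itpr1, a calcium release channel of the same store (0.59, 0.0351). Atp2b1 was detected on 1 of 2 WT arrays and passed the filter only through HET and KO, where it was higher. Its place among the rises is therefore not independent of the filter. Its difference was 0.30 without background correction (limma adjusted p = 0.0777) and 0.35 in the authors' mean-scaled table. Its call ended with no filter on dim probes (limma adjusted p = 0.135). The difference of Atp2a3 at this brighter of its 2 kept probes was 0.23 when the background was left in (limma adjusted p = 0.0573). With the settings as reported, the dimmer Atp2a3 probe differed by 0.38 between KO and WT and was not called (limma adjusted p = 0.0991). With only the WT and KO arrays in the fit, the calls of Atp2a3 (0.0508) and Itpr1 (0.0573) ended. HET differed from WT by 0.75 for Atp2b1, 0.53 for Atp2a3 and 0.36 for Itpr1, with none called. KO differed from HET by 0.17, 0.08 and 0.23 in the same order, again with none called. The summed signal of 10 Sertoli cell markers also ran higher, from 15685 to 15759 in WT and from 23613 to 24296 in KO, and its part in these rises was not tested. All 3 calls were lost when any 1 WT or KO array was left out, that of Atp2a3 also without the HET mouse of litter 2 (0.0518) and that of Itpr1 also without either HET mouse (0.0538 and 0.0580). Among 10 genes of pH, bicarbonate and chloride transport and the soluble cyclase, 1 fell and 0 rose (median -0.19). It was the carbonic anhydrase gene Car2 (-0.61, limma adjusted p = 0.0357), a call that was lost whichever of the 6 arrays was left out, with adjusted p-values from 0.0540 to 0.145, and also with no filter on dim probes (0.0529) and with only the WT and KO arrays in the fit (0.0573). The chloride channel gene Cftr differed by -0.40 (limma adjusted p = 0.126). The bicarbonate transporter gene Slc4a4 lay near background, was undetected on the WT arrays and passed the filter only through KO, where it was higher. It differed by 0.45 between KO and WT without passing the test (limma adjusted p = 0.153). With its WT values raised to the lowest detected signal of their arrays, the KO mean was 1.16-fold higher.

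The TRP and polycystin family had 0 of 11 measured genes called by limma in KO against WT (median 0.16), with Pkd1l3 at -0.32, Trpc1 at 0.27 and Pkd2 at 0.20. In the list of calcium and cAMP signalling, 2 of 24 genes fell and 1 rose (median -0.15). This list shares Tssk2, Tssk6 and Akap4 with the spermatid markers described below, so the 2 are not separate readings. Tssk4, a testis-specific kinase, differed by -0.81 (limma adjusted p = 0.0352) and Ropn1, a protein of the fibrous sheath, by -0.63 (0.04998, just under the threshold). Prkar1a, a regulatory subunit of protein kinase A, rose by 0.55 (0.0420). The call for Ropn1 ended with litter as a replicate block (limma adjusted p = 0.0534), with median scaling (-0.49, 0.0845) and without any 1 of the 6 arrays, as did that of Prkar1a without any 1 array. The call for Tssk4 was lost without each array but the HET array of litter 1. With no filter on dim probes all 3 calls ended, at a limma adjusted p of 0.0867 for Tssk4, 0.0967 for Ropn1 and 0.0506 for Prkar1a. With only the WT and KO arrays in the fit they ended at 0.0520, 0.0641 and 0.0661.

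**Figure D4:**
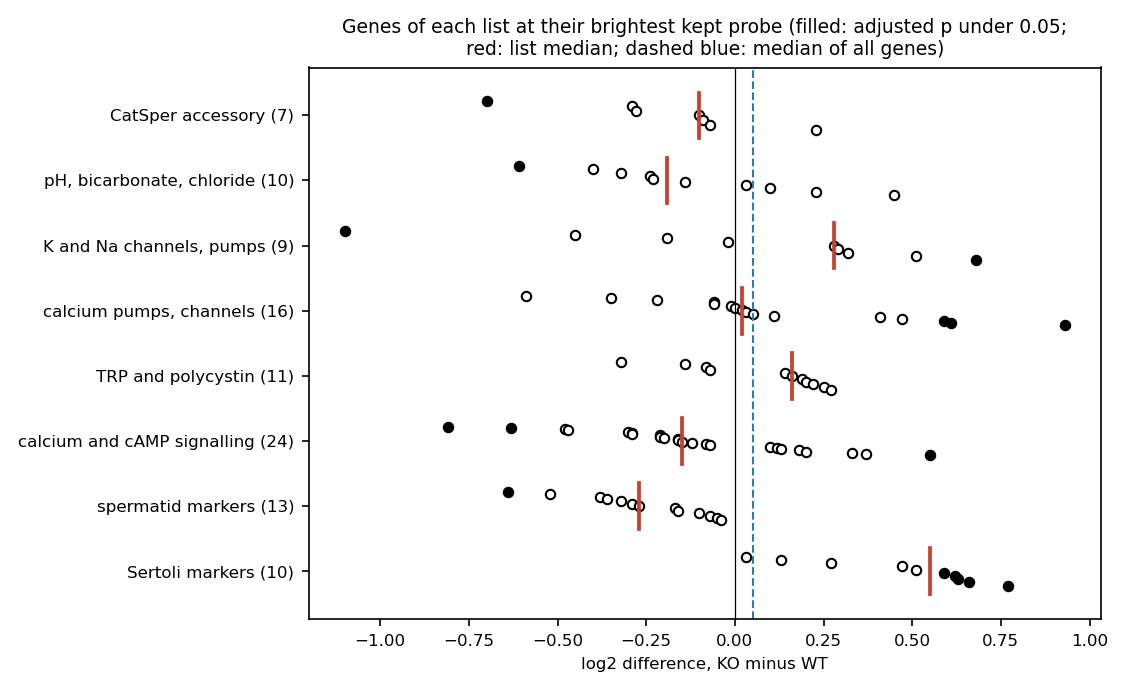
Log2 difference between KO and WT (horizontal axis) for genes of the 6 lists and of 2 marker lists at their brightest kept probe, with the number of genes in brackets. Filled points have an adjusted p under 0.05, red lines are list medians and the dashed line is the median of all genes, 0.05. All 13 spermatid markers lie below 0 and all 10 Sertoli markers above it, while 44% of all genes lie below 0. The spermatid markers share Tssk2, Tssk6 and Akap4 with the list of calcium and cAMP signalling.

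Cell type markers moved in the same comparison. All 13 measured markers of round and elongating spermatids had a negative difference between KO and WT (median -0.27, from -0.64 to -0.04), and 1 of them, Izumo1, passed the test. Their normalized signal summed to 168081 and 174234 for the WT mice, 160261 and 168648 for the HET mice, then 149071 and 152017 for the KO mice. Late spermatocyte markers had a sum of 86906 and 88645 in WT and 88119 and 88307 in KO, with 0 of 6 called by limma. Of the 10 Sertoli cell markers 5 were called higher, with a median difference of 0.55. The part of these shifts in the differences of the channel genes was not tested. Of the other lists, 1 of 5 Leydig cell markers and 2 of 9 macrophage and leukocyte markers rose. Of 8 epididymis markers listed only 2 had a kept probe, and both fell (median -0.78). Among spermatogonial markers 0 of 5 were called, and among endothelial and smooth muscle markers 0 of 7. Izumo1, the sperm protein that binds the egg, was named after its value was seen.

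The genes whose pattern over the 6 arrays lay closest to Catsper1 were Zscan5b (deposited as Zfp371), Ccdc186 (A630007B06Rik), G2e3 (6030408C04Rik), 1700001P01Rik and 8430426J06Rik. Likeness was the Euclidean distance between log2 profiles centred on their own means, searched over 14531 other genes, and it ran from 0.12 to 0.17 log2 units for these 5. Their log2 differences between KO and WT ran from -1.08 for Zscan5b to -0.99 for 8430426J06Rik, and those between HET and WT from -0.29 for G2e3 to -0.11 for 8430426J06Rik. Because these genes were picked for their likeness over the same arrays, differences near those of Catsper1 follow from the choice.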

How the data were processed

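Per the file headers, the authors deposited non-normalized bead summary intensity values with a detection p-value for each probe and array, exported from GenomeStudio according to the submitters' processing notes. A second deposited table held the same intensity values multiplied by 1 constant per array (0.9595 to 1.099), which gave every array the mean of 374.5. Any other step was not given in the sources used here, nor was a genome build.

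Background was removed with neqc, which here takes control parameters from detection p-values (normexp, offset 16), and signals were quantile normalized and put on the log2 scale (limma 3.58.1 in R 4.3.3). Kept probes had detection p-values below 0.05 on both arrays of some genotype. All 6 arrays entered 1 fit with genotype as the only term (lmFit and eBayes, 3 residual and 6.26 prior degrees of freedom). Probes were called at a Benjamini-Hochberg adjusted p under 0.05 over 20573 kept probes. The fit was tested on simulated data with independent noise on each array and no litter effect. This checks its estimates and does not show whether the calls hold in other mice. With 2 mice per genotype, the number of arrays limits the precision, and p-values measure the spread between these mice only.

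Per the labels the replicate number is the litter, so the numbers pair the mice. Deviations of same-numbered arrays from their group means correlated at 0.091 (WT with HET), 0.134 (WT with KO) and 0.168 (HET with KO). Litter as a replicate block is given where it changes a call or clearly moves a count.

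The members, gene lists and marker lists were chosen with earlier results of these data known. Named genes are all members, H3f3b, the 3 genes with the smallest p in KO against WT from each of 6 lists, and the 5 genes nearest to Catsper1. A gene with several kept probes was read at the brightest, with probes grouped by updated symbols. Members were read at the brightest probe under their own symbol, so Trpc2 was read at ILMN_1256523 and not at the brighter Trrp2 probe. Of 31508 deposited symbols 13424 were current and 8145 were updated through the RefSeq gene table. The alternatives changed the background correction, normalization, filter, block, variance prior, arrays in the fit, table and probe rule. The files hold no probe sequences, so no probe was placed in the genome. The values of 1 listed gene are not reported here.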

Additional observations from a re-analysis of the deposited data

How the results depend on the processing

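With 2 mice per genotype, counts of calls moved widely with the setting, and the cause was not tested unless the setting itself changes the number of probes or arrays. KO against WT had 1421 probes called, and 2854 without background correction, 2783 with normexp at offset 50, 530 with no filter, 2788 with an intensity trend, 849 with only the compared genotypes in the fit, 4292 in the authors' mean-scaled table, and 25 to 997 with 1 array left out. Dropping KO of litter 1 gave the 25, and dropping WT of litter 2 gave 27. With litter as a replicate block it was 1912, and the block changed no member call. Of the members, 2 genes were called, and fewer when any 1 WT or KO array was left out. The count was 1 with no filter. It was 3 without background correction, with normexp at offset 50, with an intensity trend and in the authors' mean-scaled table. HET against WT had 0 probes called, 2 without background correction, 4 with normexp at offset 50, 5 with median scaling, 4 with an intensity trend, 17 in the authors' table and 0 to 1 with 1 array left out, with 0 members in each. KO against HET had 23, and 780 without background correction, 699 with normexp at offset 50, 246 with median scaling, 2 with no filter, 231 with the stricter filter, 69 with the replicate block, 862 with an intensity trend, 8 with only the compared genotypes, 1685 in the authors' table and 2 to 10 with 1 array left out. Member genes called there were 0, but 2 without background correction, with normexp at offset 50 and with an intensity trend, 1 with median scaling and with the stricter filter, and 3 in the authors' table. Catsper1 in KO against WT stayed negative in 17 of 17 alternatives (-1.23 to -0.88) and was called in 15. Signs turned only for small differences that passed no test. In KO against WT these were Atp1a4 (ILMN_1225050) with median scaling (-0.07), cyclic loess (-0.02), the authors' table (-0.04), the mean over its probes (-0.14) and 1 array left out (-0.03 to 0.10), and, with 1 array left out, Catsper2 (-0.15 to 0.03), Trpc2 (ILMN_1256523, -0.47 to 0.08) and Pkd2l1 (-0.12 to 0.29). In HET against WT they were Atp1a4 (ILMN_1260057) with median scaling (-0.01), cyclic loess (-0.02) and 1 array left out (-0.18 to 0.18), Trrp2 (ILMN_1220948) as a mean over probes (0.01), and, with 1 array left out, Catsper3 (-0.29 to 0.14 and -0.29 to 0.01), Catsper4 (-0.14 to 0.05), Kcnu1 (-0.22 to 0.17) and Trpc2 (-0.15 to 0.22). In KO against HET they were Pkd2l1 with cyclic loess (-0.02) and 1 array left out (-0.21 to 0.20), Trrp2 (ILMN_1220948) with cyclic loess (-0.03), as a mean over probes (-0.09) and with 1 array left out (-0.16 to 0.20), and, with 1 array left out, Catsper2 (-0.02 to 0.16), Trpc2 (-0.51 to 0.05) and Trrp2 (ILMN_1230051, -0.13 to 0.03). The mean over a gene's probes was not run for counts of probes. Signals of Hvcn1 and Atp2b4 near background limit what can be said of them.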
